A study of Mus musculus with 2 samples.

Results

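Dendritic cell identity genes are the transcription factors and surface proteins by which dendritic cells and their subsets are usually told from other myeloid cells. The 10 genes followed here were chosen by name from the 34745 genes in the deposited expression table. They comprise 4 transcription factors (Zbtb46, Batf3, Id2 and Tcf4) and 6 surface proteins (Xcr1, Cd209a, Cd24a, Sirpa, Dpp4 and Epcam). Each of the 10 symbols matched 1 row. They were measured by mRNA sequencing of monocytic myeloid-derived suppressor cells (M-MDSC), immature suppressive myeloid cells, with 1 library per condition.

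Both libraries came from bone marrow of mice several weeks of age, cultured for 7 days and sorted by flow cytometry, in the study for CD11b+ Ly6G- Ly6C high cells. The CHBP- M-MDSC were grown with GM-CSF, a growth factor that drives marrow cells towards dendritic cells, macrophages and MDSCs alike. The CHBP+ M-MDSC were grown with GM-CSF and CHBP, cyclic helix B peptide, a peptide derived from EPO that does not drive red cell formation. The strain is labelled C57BL/6 for the CHBP- library and C57BL/7 for the CHBP+ library, whereas the methods name C57BL/6 throughout, so a difference of strain cannot be told apart from treatment. The labels give no dose, and the methods and the dose series of the study give CHBP in different units. How many animals were pooled for each library is not given in the sources used here. The comparison asks how CHBP alters the mRNA of GM-CSF-induced M-MDSC.

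Conventional dendritic cells (cDC) present antigen to T cells and fall into cDC1, which depend on BATF3 and IRF8 and carry XCR1 and CLEC9A, and cDC2, which carry SIRPα and depend more on IRF4. Plasmacytoid dendritic cells (pDC) depend on TCF4, also called E2-2, an E protein that binds E-box sequences, while ID2 binds E proteins and keeps them off DNA. ZBTB46 marks the cDC lineage. Cultures of marrow with GM-CSF hold monocyte-derived cells that share many of these genes with dendritic cells.

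The libraries held 16484504 counted reads (CHBP-) and 16280466 counted reads (CHBP+). A floor of 3 reads, used for a count of 0, came to 0.182 and 0.184 CPM (reads scaled to the library total). Markers of the sort were read as a check of the labels. Itgam, which encodes CD11b and has 2 overlapping entries, was at 157 and 232 FPKM (CPM per kilobase of gene length) in the CHBP- and CHBP+ library for its higher entry. Ly6g had 46 and 44 reads. Ly6c2 was at 56.9 and 34.0 FPKM, lower in the CHBP+ library. Lyz2, a monocyte and macrophage gene and not a marker of the sort, was at 9756 and 7830 FPKM.

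The RefSeq sequence around the annotated start is shown for 3 genes of very different level, Id2 (the most abundant factor), Dpp4 (low) and Xcr1 (no reads), to set their promoters side by side. Such a window, 250 bases before to 50 bases after the start on GRCm38.p6, was used for 7 of the 10 genes. Tcf4 was left out of this step, whatever RefSeq holds for it. The Zbtb46 window was not printed because its start lies 35038 bases inside the deposited span of the gene. Id2 lies on the minus strand at chr12:25096043-25096342, Dpp4 on the minus strand at chr2:62412182-62412481 and Xcr1 on the minus strand at chr9:123861980-123862279. Capitals mark E-boxes (CANNTG), the sequence that E proteins bind.
Id2: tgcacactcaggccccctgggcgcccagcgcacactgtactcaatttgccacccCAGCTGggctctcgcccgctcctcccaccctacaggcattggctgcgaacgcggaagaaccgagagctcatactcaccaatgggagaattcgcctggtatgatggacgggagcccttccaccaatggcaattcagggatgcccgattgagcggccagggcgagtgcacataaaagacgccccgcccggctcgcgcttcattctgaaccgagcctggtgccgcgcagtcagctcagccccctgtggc
Dpp4: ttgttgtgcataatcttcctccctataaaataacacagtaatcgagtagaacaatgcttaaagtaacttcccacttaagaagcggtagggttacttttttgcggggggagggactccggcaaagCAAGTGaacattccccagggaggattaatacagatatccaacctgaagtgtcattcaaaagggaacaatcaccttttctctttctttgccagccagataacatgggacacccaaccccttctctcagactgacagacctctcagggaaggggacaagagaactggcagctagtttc
Xcr1: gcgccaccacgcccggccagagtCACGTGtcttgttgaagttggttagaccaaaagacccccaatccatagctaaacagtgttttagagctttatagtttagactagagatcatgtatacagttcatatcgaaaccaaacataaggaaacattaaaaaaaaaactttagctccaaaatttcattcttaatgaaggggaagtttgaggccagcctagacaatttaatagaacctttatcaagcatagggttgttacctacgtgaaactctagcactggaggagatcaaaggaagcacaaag

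Each of the 3 windows held 1 E-box, which 72.3% of the 32851 RefSeq promoter windows of this length also held. The TATA sequence TATAAA was found once each in the Dpp4 and Xcr1 windows and not in Id2, against 13.6% of all windows. The core GAGGAA, bound by the myeloid factor PU.1, was found once in Dpp4 and not in the others, against 28.3% of all windows. The AP-1 sequence TGANTCA, to which BATF and JUN proteins bind, was in none of the 3 and in 7.81% of all windows. Both strands were searched and no match overlapped another. The Id2 window had 21 CpG dinucleotides, Dpp4 had 4 and Xcr1 had 6, against a median of 7. These matches describe letters in a window and were not tested against expression.

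The levels of the 10 genes fell far apart. The widely expressed genes Cd24a, Sirpa and Id2 took 97.2% of the reads on the 10 genes in the CHBP- library and 96.6% in the CHBP+ library. The genes that define a dendritic cell subset most narrowly were scarce or without reads. Of the 10 genes, 9 had reads in both libraries and Xcr1 had none in either. By the deposited values 5 genes reached 1 FPKM in one library or both (Cd24a, Id2, Sirpa, Dpp4 and Batf3), and 4 with reads did not. Batf3 reached it in the CHBP- library alone.

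Levels are compared between genes on the length of the longest GENCODE M1 transcript, because the length behind the deposited FPKM differed from it in 5 of the 9 genes with reads. That length was recovered from each count and its FPKM. For Cd24a (1813 bases), Id2 (1270 bases), Epcam (2040 bases) and Cd209a (1484 bases) it equalled the longest transcript. For Tcf4 it was 50628 bases, against 7402 bases for the longest of 15 annotated transcripts, a ratio of 6.84. The ratio was 4.48 for Batf3, whose GENCODE M1 entry has 1 short transcript of 712 bases, 2.51 for Sirpa, 2.00 for Zbtb46 and 1.36 for Dpp4. Across 5004 genes with at least 10 reads and 5 or more transcripts its median was 2.32, and in 921 of the 14162 genes with at least 10 reads the length exceeded the whole genomic span of the gene. Across 3270 such genes with 1 transcript the median ratio was 1, though only 65.7% of them were within 1% of that transcript. By the median, the deposited FPKM of genes with many transcripts are therefore low relative to genes with 1 transcript. A minimum of 1 FPKM set on the deposited values left out Tcf4. The same length was used in both libraries, so ratios between the libraries do not depend on it other than through a pseudocount.

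**Figure D1:**
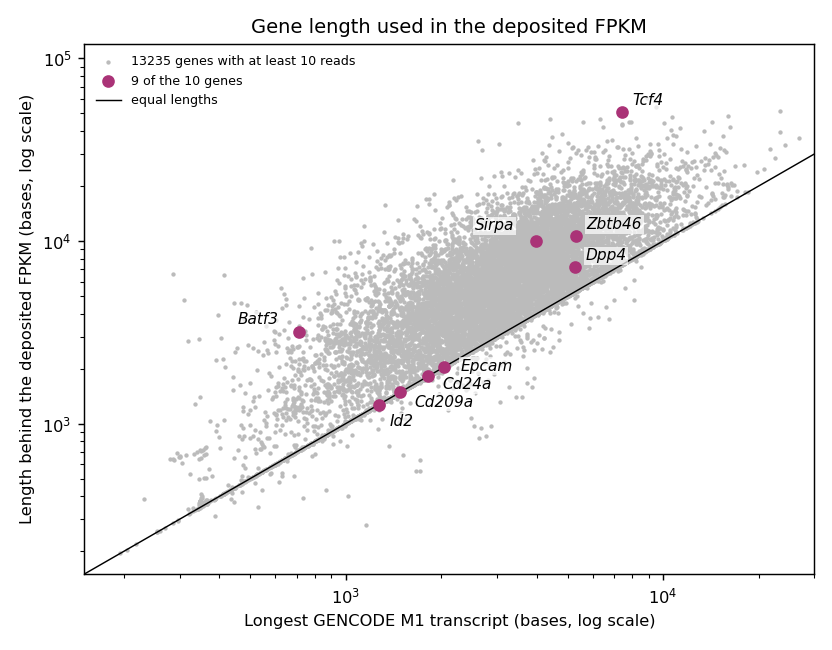
Length behind the deposited FPKM (vertical, bases, log scale) against the longest GENCODE M1 transcript (horizontal, bases, log scale). Grey points are the 13235 genes with at least 10 reads and an annotated transcript, and purple points are the 9 of the 10 genes with reads. Cd24a, Id2, Epcam and Cd209a lie on the line of equal lengths, and of the 9 Tcf4 lies farthest above it at 50628 against 7402 bases.

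On the longest transcript, the CHBP- library had Cd24a at 460 FPKM, Sirpa at 195 FPKM and Id2 at 175 FPKM. Then came Tcf4 at 4.96, Batf3 at 4.52, Dpp4 at 1.54, Epcam at 0.654, Zbtb46 at 0.560 and Cd209a at 0.531 FPKM, with Xcr1 without reads. In this library the 95% Clopper-Pearson intervals, which cover counting error only, overlapped between the neighbours Tcf4 and Batf3, Epcam and Zbtb46, and Zbtb46 and Cd209a, and were apart for all other neighbours in the order. The CHBP+ library had Cd24a at 383 FPKM, Sirpa at 195 FPKM and Id2 at 157 FPKM, followed by Tcf4 at 4.97, Batf3 at 3.36, Dpp4 at 2.12, Zbtb46 at 1.08, Epcam at 0.602 and Cd209a at 0.538 FPKM. In it Zbtb46 stood above Epcam, with overlapping intervals. The intervals of Batf3 and Dpp4, which were apart in the CHBP- library, overlapped here. The place of Batf3 above Dpp4 depends on the length used. As deposited the order was the reverse, with Batf3 at 1.01 and Dpp4 at 1.13 FPKM in the CHBP- library. In the CHBP+ library they were at 0.750 and 1.56 FPKM as deposited.

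**Figure D2:**
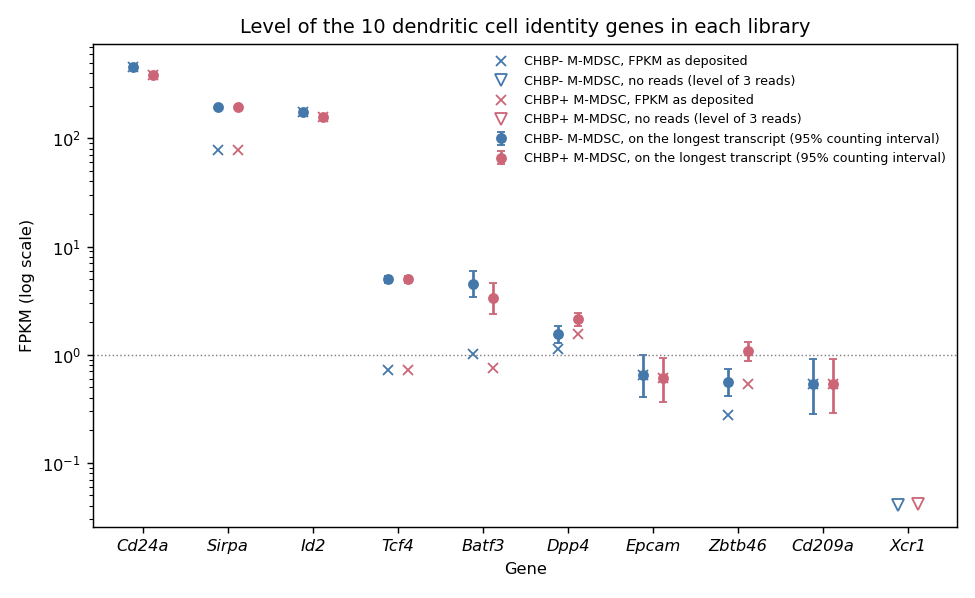
Level of each of the 10 genes (horizontal) in FPKM on a log scale (vertical), with CHBP- M-MDSC in blue and CHBP+ M-MDSC in red. Circles with bars are FPKM on the longest transcript with the 95% counting interval, crosses are the deposited FPKM, triangles mark Xcr1 without reads at the level of 3 reads, and the dotted line is 1 FPKM. Cd24a, Sirpa and Id2 lie above 100 FPKM on the longest transcript and the other 7 genes below 10 FPKM.

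With 1 library per condition there is no spread between replicates. Each gene was compared by its read ratio, the CPM in CHBP+ over the CPM in CHBP- M-MDSC, with its 95% Clopper-Pearson interval, and by a two-sided exact binomial test of its reads against the library totals adjusted by Benjamini-Hochberg over the 14162 genes that had 10 or more reads. Such a test speaks of these 2 libraries and not of the conditions. It called 4 of the 9 genes tested, Zbtb46 and Dpp4 higher and Cd24a and Id2 lower in the CHBP+ library. Of all genes tested it called 44.1%, with 21.9% higher and 22.2% lower, so the share called among these genes, 4 of 9, was that of genes in general. By the fold threshold of the study, 1.5-fold, applied to FPKM + 1 in genes that reached 1 FPKM, none of the 5 genes was higher and none was lower, while 3.42% of the 10948 genes kept were higher and 2.89% lower. Over all genes kept 374 were higher and 316 lower (54.2% higher), and with a gene length trend removed 312 and 168 (65.0% higher). The median log2 ratio of FPKM + 1 was -0.16 over those 5 genes and -0.03 over all genes kept. In bulk RNA, fewer cells of a type and less RNA per cell cannot be told apart.

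The read ratio across the whole data rose with transcript length, so the ratios of the identity genes, and of the other genes where the value is printed, are also given after a polynomial trend with the length and GC content of the longest coding transcript was removed, a correction chosen after seeing the data. Genes scattered about that trend with an SD of 0.36 (log2) over 11214 genes with at least 50 reads. The median log2 ratio of CPM was -0.39 in the lowest of 10 bins by transcript length (median 930 bases) and 0.47 in the highest (median 7583 bases).

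**Figure D3:**
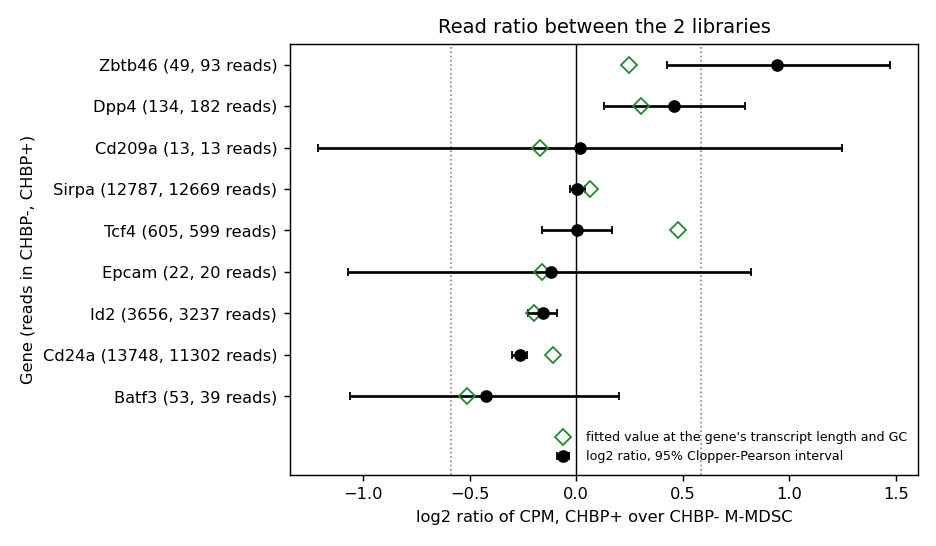
Log2 ratio of CPM, CHBP+ over CHBP- M-MDSC (horizontal), for the 9 genes with reads (vertical, with their reads in each library). Black points with bars are the ratio with its 95% Clopper-Pearson interval, green diamonds are the value fitted at the transcript length and GC content of the gene, and dotted lines mark 1.5-fold. The interval lies above 0 for Zbtb46 and Dpp4 and below 0 for Cd24a and Id2, and the diamond lies outside the interval for Zbtb46, Tcf4, Sirpa and Cd24a.

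Zbtb46 (ENSMUSG00000027583, chromosome 2 from 181387762 to 181459426) encodes a zinc finger and BTB domain factor that marks cDC and their committed precursors. Reads numbered 49 in the CHBP- library and 93 in the CHBP+ library. The CHBP+ library was thus the higher one, at a level that stayed low in both, 0.280 and 0.537 FPKM as deposited. The read ratio was 1.92 with an interval from 1.35 to 2.77, with adjusted p = 0.000726 (exact binomial test, Benjamini-Hochberg). This was the highest ratio of the 9 genes and the only one past 1.5-fold, which 7.17% of the 11885 genes with at least 50 reads also passed upwards and 5.05% downwards. On the scale of deposited FPKM + 1 the log2 ratio was 0.26, since the pseudocount exceeds the level of the gene. Removal of the trend, about which genes scattered with an SD of 0.36, took the log2 ratio of CPM from 0.94 to 0.70. The interval, which leaves that scatter out, ran from 0.18 to 1.23. On that scale Zbtb46 again was the only one of the 7 genes with at least 50 reads past 1.5-fold, against 3.83% of 11214 genes higher and 2.66% lower.

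Of 7 other genes of the Zbtb family, 4 reached 1 FPKM, and with the fold threshold none of those was higher or lower. Zbtb7b, a T helper lineage factor that overlaps the listed gene Gm15417, had 2970 and 2742 reads, a read ratio of 0.935. Zbtb7a had 1544 and 1535 reads, and Bcl6, a repressor that cDC also use, had 406 and 495 reads. Over the 8 genes with Zbtb46 included, 7 were in the read test. The test called 3 higher and 2 lower, against 21.9% and 22.2% of all genes tested. It called Bcl6 higher (adjusted p = 0.00522) and Zbtb7b lower (adjusted p = 0.0275, both with Benjamini-Hochberg adjustment). Zbtb17, which overlaps Spen and was named after its values were seen, had 447 and 353 reads and was called lower (adjusted p = 0.00501, exact binomial test with Benjamini-Hochberg adjustment). Trend-removed log2 ratios were 0.25 for Bcl6, -0.12 for Zbtb7b and -0.18 for Zbtb17. Zbtb20, which overlaps BC002163 and was named after its values were seen, had 143 and 262 reads, a ratio of 1.86, which with the trend removed became a log2 ratio of -0.44.

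Batf3 (ENSMUSG00000026630, chromosome 1 from 191097847 to 191108945) encodes the basic leucine zipper factor on which cDC1 depend. Its reads were 53 in the CHBP- and 39 in the CHBP+ library, or 1.01 and 0.750 FPKM. The read ratio was 0.745 with an interval from 0.480 to 1.15, and the adjusted p was 0.284 by the exact binomial test with Benjamini-Hochberg adjustment. A difference was not detectable at this depth. The fitted value at its short annotated transcript was -0.51 (log2), close to its own -0.42.

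Id2 (ENSMUSG00000020644, chromosome 12 from 25093801 to 25096092) encodes the inhibitor of E proteins and was the most abundant of the 4 factors, above 99.3% of all listed genes in both libraries. Its reads were 3656 in the CHBP- and 3237 in the CHBP+ library, or 175 and 157 FPKM. The CHBP+ library was lower, with a read ratio of 0.896, an interval from 0.855 to 0.940 and an adjusted p = 2.72e-05 (exact binomial test, Benjamini-Hochberg). The direction turned with the trend removed, to a log2 ratio of 0.04 with an interval from -0.03 to 0.11. The value fitted for genes of its length and GC content was -0.20, against -0.16 for Id2 itself.

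Tcf4 (ENSMUSG00000053477, chromosome 18) encodes the E protein of pDC, which B cells and other cells also express. It had 605 and 599 reads, or 0.725 and 0.727 FPKM as deposited and 4.96 and 4.97 FPKM on the longest transcript. The read ratio was 1.00 with an interval from 0.894 to 1.12. Genes of its length and GC content had a fitted log2 ratio of 0.48. With the trend removed Tcf4 stood at -0.48, with an interval from -0.64 to -0.31. That interval leaves out the scatter of single genes about the trend, an SD of 0.36. Tcf4 was thus level between the libraries while genes of like length were mostly higher in CHBP+ M-MDSC.

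**Figure D4:**
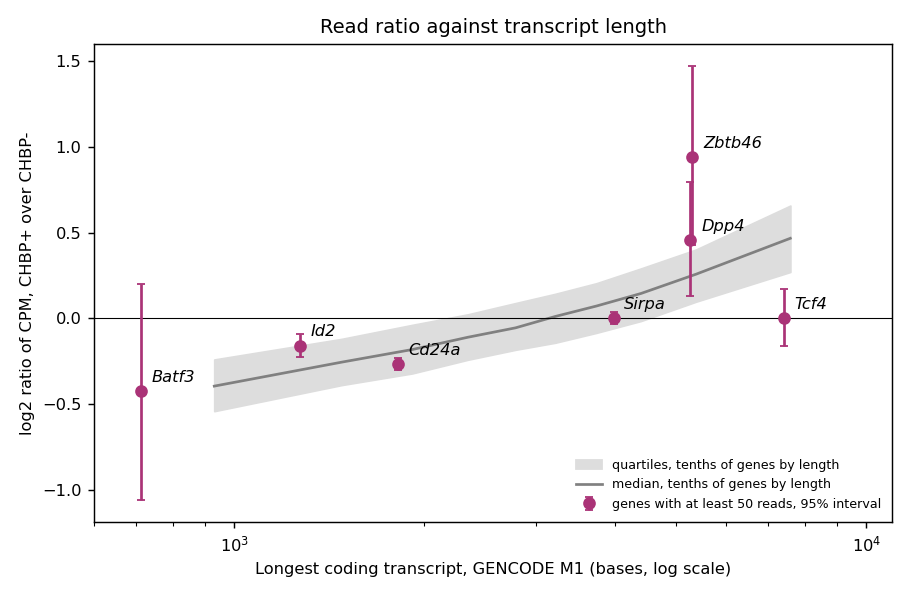
Log2 ratio of CPM, CHBP+ over CHBP- M-MDSC (vertical), against the longest coding transcript (horizontal, bases, log scale). The grey line and band are the median and quartiles of genes in 10 bins by length, and purple points with bars are the 7 genes with at least 50 reads and their 95% Clopper-Pearson intervals. Zbtb46 lies above the band at 0.94 and Tcf4 below it at 0.00, while Dpp4, at 0.46, has an interval that reaches into it.

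Another 16 genes act with these factors, such as BATF and JUN proteins, IRFs, the other ID proteins and the other E proteins. Nfil3, Spi1, Irf4, Irf8 and Zeb2 are also in other lists. Of the 16 genes, 15 had reads and 14 reached 1 FPKM. None of the 14 was 1.5-fold higher or lower on FPKM + 1, with 3 above 0, 11 below 0 and a median log2 ratio of -0.05. By reads, 3 of 15 were called higher and 6 lower, against 21.9% and 22.2% of all genes tested. Spi1, which encodes PU.1, had 4668 and 3875 reads, Junb had 2278 and 1823 reads, and Nfil3, a factor upstream of cDC1, had 1998 and 1718 reads. All 3 were called lower, with read ratios of 0.841, 0.810 and 0.871. After removal of the trend the log2 ratio of Junb was 0.03, on the other side of 0, and those of Spi1 and Nfil3 were both -0.01.

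The following partners were named after their values were seen. Irf4, the factor of cDC2 and of GM-CSF-derived cells, had 1660 and 2158 reads, a ratio of 1.32 (adjusted p = 3.70e-16, exact binomial test with Benjamini-Hochberg adjustment) and a trend-removed log2 ratio of 0.19. Irf8, the factor of cDC1, had 1849 and 1778 reads, a ratio of 0.974 (adjusted p = 0.560, same test). Among the E proteins Tcf12 had 940 and 1299 reads and Tcf3 had 537 and 509 reads, of which Tcf12, which overlaps Gm38057, was called higher, at 0.25 after trend removal. Id1, another inhibitor of E proteins, had 1049 and 728 reads and was called lower, at -0.17 after trend removal, and Id3 had 48 and 44 reads and was not called. Batf, which can stand in for BATF3, had 398 and 287 reads and was called lower, at a trend-removed log2 ratio of -0.05. Zeb2, which overlaps Zeb2os, had 4147 and 6342 reads and was called higher, with a ratio of 1.55 and a trend-removed log2 ratio of 0.03.

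Cd24a (ENSMUSG00000047139, chromosome 10 from 43579169 to 43584262) encodes CD24, a small anchored glycoprotein that is high on cDC1 but also on B cells, neutrophils and red cell precursors. It was the most abundant of the 10 genes. Its reads were 13748 in the CHBP- and 11302 in the CHBP+ library, or 460 and 383 FPKM. The CHBP+ library was lower, with a read ratio of 0.832, an interval from 0.812 to 0.853 and an adjusted p = 5.69e-46 (exact binomial test, Benjamini-Hochberg). Trend removal took the log2 ratio from -0.26 to -0.16, with an interval from -0.19 to -0.12, within 1 SD (0.36) of genes about that trend.

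Markers of the other cells that carry CD24 were lower in sum in the CHBP+ library too. The read test called none of them higher, and called 3 of 6 B cell, 4 of 8 neutrophil and 5 of 7 red cell markers lower, against 22.2% of all genes tested. The median log2 ratio of the neutrophil markers was -0.29, and -0.02 with the trend removed, where S100a9 was at -0.06. Among them S100a8, S100a9, Elane and Mpo were called lower, and Ly6g, Ltf, Camp and Cxcr2 were not called. The latter had trend-removed log2 ratios of 0.42, 0.12, 0.08 and 0.02. With the trend removed Cd79a was at -0.54 and Hbb-bs at -1.36, while the medians of the B cell and red cell lists were -0.33 and -0.26. The summed FPKM of 6 B cell markers, all with reads, was 41.7 in CHBP- and 28.4 in CHBP+ M-MDSC, of which Cd79a had 444 and 248 reads. That of 8 neutrophil markers, all with reads, was 1967 and 1417 FPKM, with S100a9, which monocytes express too, the highest at 1269 and 937 FPKM. That of 7 red cell markers, all with reads, was 1283 and 587 FPKM, with Hbb-bs at 708 and 212 FPKM. The part of these cells in the difference in Cd24a was not tested.

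Sirpa (ENSMUSG00000037902, chromosome 2 from 129592835 to 129632228) encodes SIRPα, the receptor for the do-not-eat-me protein CD47, carried by cDC2, monocytes and macrophages. It had 12787 and 12669 reads, or 77.7 and 78.0 FPKM as deposited. The read ratio was 1.00 with an interval from 0.979 to 1.03, so that any difference in the reads of this gene was small. Its trend-removed log2 ratio was -0.06. Its paralogs Sirpb1a, Sirpb1b and Sirpb1c had from 174 to 433 reads in CHBP- and from 199 to 438 in CHBP+ M-MDSC, and none was called. Reads of such near-identical genes can be divided differently by the counting.

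The protein partners of SIRPα were abundant too. Cd47, the ligand, had 10102 and 10508 reads, and Ptpn6, the phosphatase SHP-1 that SIRPα recruits, had 5742 and 4994 reads. The read test called Cd47 higher and Ptpn6 lower, with ratios of 1.05 and 0.881. The trend-removed log2 ratio of Cd47 was -0.23, on the other side of 0. Thbs1, thrombospondin-1, another CD47 ligand, had 119524 and 154451 reads, a ratio of 1.31 and a trend-removed log2 ratio of 0.09. That of Ptpn6 was -0.04. Of the 12 ligands and partners of the surface proteins, Icam3 matched no symbol, Xcl1 and Sftpd had no reads, 8 reached 1 FPKM and none of these 8 passed 1.5-fold on FPKM + 1. Cav1, which encodes caveolin-1, a binding partner of CD26, was named after its values were seen. It had 145 and 58 reads, a read ratio of 0.405 with adjusted p = 9.54e-09 (exact binomial test, Benjamini-Hochberg), and a trend-removed log2 ratio of -1.33. On FPKM + 1 its log2 ratio was -0.52, since its level is near the pseudocount.

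Dpp4 (ENSMUSG00000035000, chromosome 2 from 62330073 to 62412231) encodes CD26, a membrane peptidase that trims chemokines and hormones and is carried by cDC1 and by T cells. Its reads were 134 in the CHBP- and 182 in the CHBP+ library, or 1.13 and 1.56 FPKM. The CHBP+ library was higher, with a read ratio of 1.38, an interval from 1.09 to 1.73 and an adjusted p = 0.0154 (exact binomial test, Benjamini-Hochberg). Here trend removal took the log2 ratio from 0.46 to 0.16, with an interval from -0.17 to 0.49 that includes 0. The 8 T cell markers, all with reads, summed to 6.79 FPKM in CHBP- and 5.97 FPKM in CHBP+ M-MDSC, and none was called. Their part in the result was not tested. Among its relatives, Dpp8 had 2268 and 3085 reads, Prep had 1536 and 1694 reads and Dpp9 had 1043 and 960 reads. The first 2 were called higher, at trend-removed log2 ratios of 0.22 and 0.21, while Dpp9 was not called. Fap, the closest relative of Dpp4 on the membrane, had 8 and 9 reads.

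Epcam (ENSMUSG00000045394, chromosome 17 from 87635979 to 87651106) encodes an adhesion protein of epithelium that Langerhans cells, the dendritic cells of the epidermis, also carry. It had 22 and 20 reads, or 0.654 and 0.602 FPKM. The read ratio was 0.920 with an interval from 0.477 to 1.77, which leaves a difference of either sign undetectable at this depth. Of 7 epithelial markers Krt5, Krt14, Krt19, Cldn4 and Esrp1 had no reads in either library, Krt8 had 1 read in each, and Krt18 had 62 and 57 reads. Cd207, which encodes langerin, had no reads. Other genes that Langerhans cells use but do not own were present. Cdh1, E-cadherin, had 1216 and 1452 reads and Ahr, a receptor for aromatic compounds, had 1361 and 1642 reads, both called higher in CHBP+ M-MDSC. The trend-removed log2 ratio of Ahr was -0.01, on the other side of 0, and that of Cdh1 was 0.12. Runx3, which overlaps Gm16224, had 1259 and 1310 reads and was not called.

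Cd209a (ENSMUSG00000031494, chromosome 8 from 3743395 to 3748984) encodes a mouse homologue of DC-SIGN, a lectin of monocyte-derived dendritic cells and of some cDC2. It had 13 reads in each library, or 0.531 and 0.538 FPKM. The read ratio was 1.01 with an interval from 0.432 to 2.37. Among the 6 other members of the Cd209 cluster only Cd209c had reads, 9 and 12, and the other 5 had none.

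Xcr1 (ENSMUSG00000060509, chromosome 9 from 123852315 to 123862029) encodes the chemokine receptor that is the most restricted surface mark of cDC1. It had no read in either library. The Clopper-Pearson interval of its level, on its transcript of 4453 bases, reached 0.0503 FPKM in CHBP- and 0.0509 FPKM in CHBP+ M-MDSC. Xcl1, the gene of its ligand, had no reads either. Clec9a, the other narrow cDC1 mark, named after its values were seen, had 148 and 218 reads, or 2.22 and 3.31 FPKM, with a read ratio of 1.49, an adjusted p = 0.000599 (exact binomial test, Benjamini-Hochberg) and a trend-removed log2 ratio of 0.49. Clec9a overlaps Clec1b, so part of its reads may belong to that gene.

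The 10 genes were set beside other genes of each dendritic cell group. Of 12 other cDC1 genes, all had reads and 7 reached 1 FPKM, with none past 1.5-fold on FPKM + 1. The 3 of these with the highest FPKM, Nfil3, Ppt1 and Naaa, had log2 ratios of -0.20, -0.03 and -0.03. Ppt1 overlaps Cap1. By reads 3 of 11 cDC1 genes tested were called higher and 1 lower, against 21.9% and 22.2% of all genes tested. Of 12 other cDC2 genes 11 reached 1 FPKM, of which 1 was higher and 1 lower past 1.5-fold. The read test called 2 of the 12 higher and 4 lower, beside the same shares of all genes tested. Clec4a4, a lectin of cDC2, had 5 and 15 reads and was not called by the read test (adjusted p = 0.0572 with Benjamini-Hochberg adjustment, exact binomial). Ltb, lymphotoxin beta, had 537 and 311 reads, a log2 ratio of -0.67, which was under 1.5-fold at -0.32 with the trend removed.

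Of 12 other pDC genes 8 reached 1 FPKM and 1 was lower past 1.5-fold, Ly6d, a small surface protein of B cell and pDC precursors, with 307 and 185 reads and a log2 ratio of -0.68. That call was lost with the gene length trend removed (-0.43) and with transcript length and GC content removed (-0.28). Siglech, a narrow pDC mark named after its values were seen, had 66 and 58 reads and was not called. It was under 1 FPKM as deposited and at 1.74 and 1.55 FPKM on the longest transcript. By reads 3 of the 12 pDC genes were called higher and 4 lower, against 21.9% and 22.2% of all genes tested. Of 13 shared cDC and precursor genes 11 reached 1 FPKM and none passed 1.5-fold. By reads 6 of the 13 were called higher and 6 lower, against 21.9% and 22.2% of all genes tested. These counts were not adjusted for the number of reads per gene. Cd74, the invariant chain of MHC class II, had 18730 and 14275 reads, H2-Eb1 had 3974 and 3018 reads and Cst3 had 4963 and 3701 reads, each called lower. Their trend-removed log2 ratios were -0.06, -0.05 and 0.03, that of Cst3 on the other side of 0. Itgax, Slamf7, Ciita, Bcl11a and Kit, named after their values were seen, were with Zbtb46 the genes called higher. Itgax, which encodes CD11c, had 9336 and 12253 reads, a ratio of 1.33. With the trend removed these genes other than Zbtb46 were at 0.31, 0.31, 0.22, 0.12 and -0.04 in that order. Ciita overlaps Dexi. Flt3, the receptor that sustains dendritic cell precursors, named after its values were seen, had 241 and 219 reads and was not called.

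Of 14 genes of mature dendritic cells 12 reached 1 FPKM, with a median log2 ratio of -0.10, and by reads none was called higher and 4 were called lower. The share called lower among all genes tested was 22.2%. Ccl5, a chemokine, had 71 and 29 reads, the only gene of that list past 1.5-fold, with a log2 ratio of -0.89, and -0.82 for CPM after trend removal. Of 7 Langerhans cell genes, Epcam among them, 5 reached 1 FPKM, with a median log2 ratio of 0.26, which after trend removal was 0.03 for CPM. Of 14 monocyte and macrophage genes 13 reached 1 FPKM and their median was -0.05, with Ly6c2 alone past 1.5-fold (4091 and 2411 reads, lower in CHBP+ M-MDSC, with a log2 ratio of -0.73). That call was lost at -0.39 with transcript length and GC content removed. By reads 4 of the 14 monocyte and macrophage genes were called higher and 5 lower, against 21.9% and 22.2% of all genes tested. The 4 called higher, named after their values were seen, were Adgre1, Maf, Ccr2 and Csf1r, which overlaps Hmgxb3. Their trend-removed log2 ratios were 0.16, -0.05, -0.10 and 0.02. With the trend removed, the medians of the 6 dendritic cell lists lay from 0.00 to 0.03, and that of the 5 of the 10 genes that reached 1 FPKM was 0.04.

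**Figure D5:**
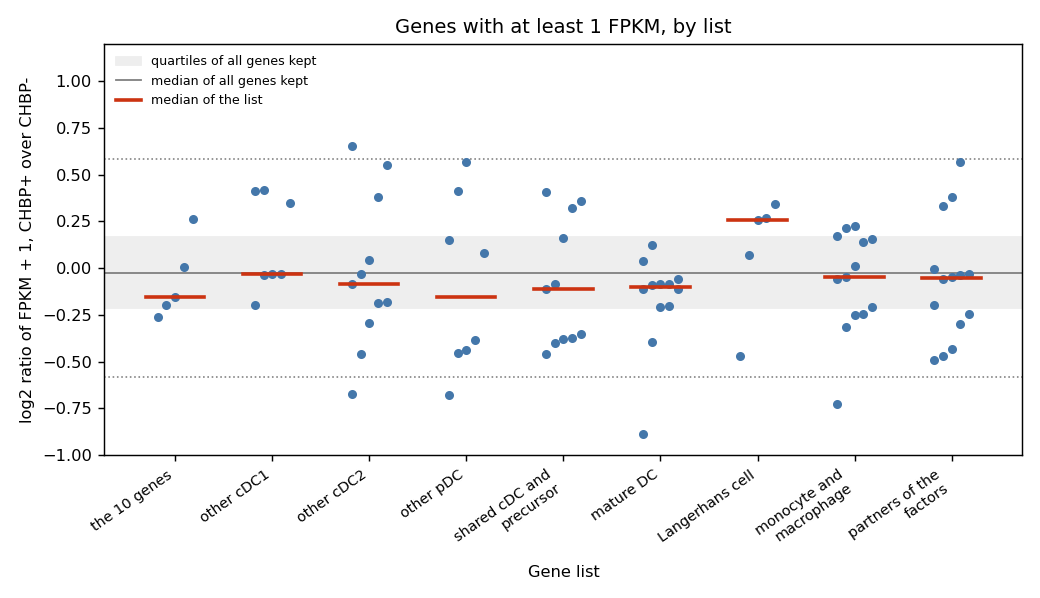
Log2 ratio of FPKM + 1, CHBP+ over CHBP- M-MDSC (vertical), for genes that reached 1 FPKM, by gene list (horizontal). Points are genes, red bars are list medians, the grey line and band are the median and quartiles of all genes kept, and dotted lines mark 1.5-fold. The 10 identity genes, of which 5 are shown, lie between -0.26 and 0.26, and of the lists plotted the Langerhans cell genes have the highest median at 0.26.

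Markers of lymphocytes and of mast cells were also measured in both libraries. The 7 markers of NK and innate lymphoid cells, which depend on ID2, summed to 3.47 and 3.39 FPKM, with Ncr1 without reads. Gzmb, the highest by deposited FPKM, had 51 and 40 reads, and Klrk1, named after its values were seen, had 119 and 130 reads and was at 2.26 and 2.50 FPKM on the longest transcript, against 2.18 and 1.73 FPKM for Gzmb. The 6 markers of mast cells and basophils, all with reads, summed to 297 and 244 FPKM, with Cpa3 at 141 and 130 FPKM. The read test called 1 of them higher and 4 lower, against 21.9% and 22.2% of all genes tested. The higher one, Ms4a2, named after its values were seen, had 182 and 446 reads. Its read ratio was 2.48 and its trend-removed log2 ratio 1.32. The part of these cell types in the level of Id2 was not tested.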

How the data were processed

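Gene counts and FPKM of both libraries were taken from the deposited table. Per the labels, the authors trimmed and filtered the reads and removed those from ribosomal RNA. Their methods name alignment to mm9 with TopHat2, and HT-seq and DESeq for expression and its differences. The submitters' processing notes name HISAT2 2.0.4, Cufflinks 2.1.1, Cuffdiff and mm10 (GRCm38) instead, and which of them made the table is not known. The deposited counts are raw reads per gene. The deposited FPKM equal those counts over the library total and a length per gene. The deposited coordinates of all 10 genes overlapped their RefSeq gene on GRCm38.p6, and those of 2 overlapped their gene on mm9, so they are given as GRCm38. Handling of strand and multi-mapping reads was not given in the sources used here. None of the 10 genes overlapped another listed gene with at least 10 reads.

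The log2 ratio was log2((FPKM in CHBP+ + 1)/(FPKM in CHBP- + 1)) where either library reached 1 FPKM. The pseudocount understates the change of low genes, so read ratios were given as CPM without a pseudocount. Intervals are 95% Clopper-Pearson intervals, and they and the read test cover counting error only, since reads without molecular identifiers are not separate molecules. The read test (scipy 1.17.1) was tested on simulated Poisson counts with known changes. The simulation had no length trend and no spread beyond counting error, so it does not show how the test behaves in these libraries. With no replicates there was no fit of a count model, and the P value of the study between conditions was not repeated. The trend was a least-squares polynomial of degree 3. GENCODE M1 was used by gene identifier for transcript length and GC content only, and 93.5% of genes with at least 10 reads had a transcript. TMM factors came from edgeR 4.0.16 in R 4.3.3, and other steps from Python 3.11.15, numpy 2.4.6, pandas 2.3.3 and matplotlib 3.10.9.

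The 10 genes and all gene lists were chosen with earlier results of these data known. The genes named were the 10 genes, in each list the genes with at least 1 FPKM and past 1.5-fold or otherwise up to the 3 with the highest FPKM, and the highest marker of each other cell type. Genes outside this rule were named to complete a family or marker list or are said to have been named after their values were seen.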

Additional observations from a re-analysis of the deposited data

How the results depend on the processing

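The count of the 10 genes at least 1.5-fold higher was 0, and it was 1, Zbtb46, with CPM and a pseudocount of 1, with CPM without a pseudocount, and with the transcript length and GC trend also removed. None was 1.5-fold lower under any setting run. The median log2 ratio of the genes kept was 0.041 with CPM, no pseudocount and that trend removed, where 7 genes were kept. The counts of all genes higher and lower were 374 and 316. They were 665 and 571 when the pseudocount was 0.1, 218 and 209 among genes of 5 FPKM or more (fewer genes counted), 796 and 464 with CPM and a pseudocount of 1, 312 and 168 with the gene length trend removed, 85 and 46 at a fold threshold of 2, and 852 and 600 with CPM without a pseudocount. The share of higher genes was 54.2%, and 65.0% with the gene length trend removed. With the gene length trend removed the log2 ratios of Id2 and Cpa3 turned to 0.055 and 0.070. With transcript length and GC content both removed, those of Id2, Ahr, Cst3, Cd47, Junb and Cpa3 turned to 0.041, -0.013, 0.026, -0.23, 0.030 and 0.035. The cause was not tested beyond the removal of the trend itself. Over the 9 genes with reads and 12 settings, 74 of 87 values stayed within the counting interval, 11 left it without a change of a called sign and 2, both of Id2, turned. TMM, size factors by median of ratios, no filter and overlapping genes left out changed no count by over 1.5 times. CPM without a pseudocount, its trend-removed form and FPKM on the longest transcript were chosen after seeing the data. No paired analysis was possible because each condition has 1 library, which also means that no replicate could be left out. Depth limits Cd209a, Epcam and Batf3, whose intervals span 1.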
